A study of Mus musculus with 4 samples.

Results

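The genes described here encode the enzymes and regulators with which a cell makes cholesterol and fatty acids. The set was given as a list of 33 gene symbols, all found among the 48858 genes to which transcripts were summed, and 31 of them passed the filter on low counts that left 12863 genes for testing. They were ordered by pathway step into 5 regulators of the SREBP transcription factors, 7 enzymes from acetyl-CoA to the isoprenoids, 12 enzymes from squalene to the sterols, 8 enzymes of fatty acid synthesis and desaturation, and the sterol transfer protein gene Stard4. RNA came from naive CD4 T cells of mice, sorted by flow cytometry as TCRb+CD4+CD25-CD62LhiCD44low. There were 2 wild-type (WT) libraries from littermates with loxP-flanked alleles (Btg1f/f Btg2f/f) and 2 double-knockout (DKO) libraries from mice with the same alleles and CD4-Cre. Cre driven by Cd4 regulatory sequences acts during thymic development in cells that become CD4 or CD8 T cells, so the loss of both genes precedes the naive state. No treatment is named in the labels, and neither age nor sex of the mice is stated there. Since the labels speak of pairs of mice, each library was taken as a separate animal.

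Cholesterol synthesis starts when acetyl-CoA units are joined to HMG-CoA, which is turned into mevalonate and then into the isoprenoid building blocks. Farnesyl diphosphate is joined to squalene, which is oxidised and closed to lanosterol and trimmed to cholesterol. Fatty acid synthesis uses the same acetyl-CoA, made in the cytosol by ATP citrate lyase. SREBP proteins are held in the endoplasmic reticulum by SCAP and the INSIG proteins when sterols are plentiful, and are carried to the Golgi and cleaved when sterols are scarce, after which they turn on both pathways. Resting T cells make little lipid, and activated T cells raise both pathways through SREBP before they divide. BTG1 and BTG2 bind the CCR4-NOT deadenylase, which shortens poly(A) tails, and the title of the series ties them to mRNA destabilization and T cell quiescence.

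Library totals lay between 13889894 and 17827631 estimated counts. In the WT libraries Btg1 had 7378 and 5443 counts, against 103 and 125 in the DKO libraries, and Btg2 had 1295 and 1067 against 5 and 7, so both targeted genes were low where the labels place the deletion. CPM below are counts scaled to library totals after TMM normalization, which assumes that most genes do not change, and are given for WT replicates 1 and 2 and then for DKO replicates 1 and 2. Markers of naive CD4 T cells (7 genes) summed to 2652 to 3125 CPM in every library, with overlapping groups. Of the markers of other cells, Lep, Alb, Apoa1 and Ttr were at 0 counts in every library, and adipocyte and hepatocyte markers, from tissues rich in lipid synthesis, summed to at most 0.934 and 0.259 CPM. B cell markers (5 genes) summed to at most 1.88 CPM and myeloid markers (5 genes) to 2.6 to 5.6 CPM. Other measures did differ between the groups. The 4 regulatory T cell markers Foxp3, Ikzf2, Il2ra and Nrp1 summed to 9.42 and 9.6 CPM in WT and 24.9 and 41 CPM in DKO, each of the 4 without overlap. The 2 CD8 T cell markers summed to 7.19 and 7.52 CPM against 8.59 and 13.2 CPM. Nearly all of that was Cd8b1, at 6.76 and 7.44 CPM in WT and 8.53 and 12.9 CPM in DKO. Cd8a had 6 and 1 counts in WT against 1 and 5 in DKO, with overlapping groups, and was not tested. Protein-coding genes held 38.9 and 35.7% of the counts in WT and 44.7 and 48.9% in DKO, and the implied mean fragment length was 123.8 and 119.8 bases against 133.5 and 142.2 bases. The part that any of these measures plays in the values below was not tested.

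No gene of the set passed the test between DKO and WT, but more of them lay above WT than below. With edgeR's quasi-likelihood test at an adjusted p below 0.05 (Benjamini-Hochberg, over all genes), 0 of the 31 tested members were called higher and 0 lower. Calls were made for 0.0544% and 0.07% of all genes and for 0.0466% and 0.0186% of protein-coding genes. The lowest adjusted p was 0.243, for Sc5d. At an unadjusted p below 0.05, 4 members were higher (Sc5d, Dhcr7, Srebf1 and Insig2) and 0 lower, beside 3.82% and 4.35% of all genes and 4.39% and 2.66% of protein-coding genes. DESeq2 and limma on TPM values also called 0 members, with 1 and 10 higher and 0 lower at an unadjusted p below 0.05. The matching shares of all genes are not given for these fits. In limma the median log2 fold change of all genes was 0.08 on log2(TPM + 1) and 0.27 on log2(TPM + 0.1). In the edgeR fit it was −0.01, so the 10 members are not set against the edgeR shares.

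Of the 31 tested members, 13 (41.9%) had the DKO libraries both above the higher WT library, and 1, Stard4, had them both below the lower. The same held for 19.9% of all tested genes above and 18.8% below, and for 22.3% and 16.4% of protein-coding genes. The fitted log2 fold change, DKO minus WT, was positive in 22 members and negative in 9, with a range from −0.38 to 0.84. Its median over the members was 0.26, against −0.01 over all tested genes and 0.02 over protein-coding ones. Relative to the mean of the WT libraries, the median member stood at −0.02 and 0.02 on the log2 scale in WT replicates 1 and 2 and at 0.24 and 0.30 in DKO replicates 1 and 2. The 2 WT values mirror each other by construction. For this median over all members the offset was present in both DKO libraries, and by step it was less even. The regulators were at 0.28 and 0.31 in DKO and the late sterol enzymes at 0.10 and 0.36, with WT at most 0.06 and 0.07. The early enzymes were at 0.13 in both WT replicate 1 and DKO replicate 1. The fatty acid genes were at 0.06 in WT replicate 2 and 0.03 in DKO replicate 2. With fewer libraries the counts without overlap grow by construction, to 21 above and 2 below without WT replicate 1 and to 17 and 7 when WT replicate 2 was dropped. They were 19 and 3 without DKO replicate 1 and 18 and 4 if DKO replicate 2 was left out. The matching shares of all genes with a library left out are not given. These counts are therefore not read as a result about the members. The smallest p of an exact two-sided permutation test is 0.333 with 2 libraries a group, so p-values are given only from models fitted across genes. In bulk RNA, a change in the number of cells that use a gene and a change in RNA per cell cannot be told apart.

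**Figure D1:**
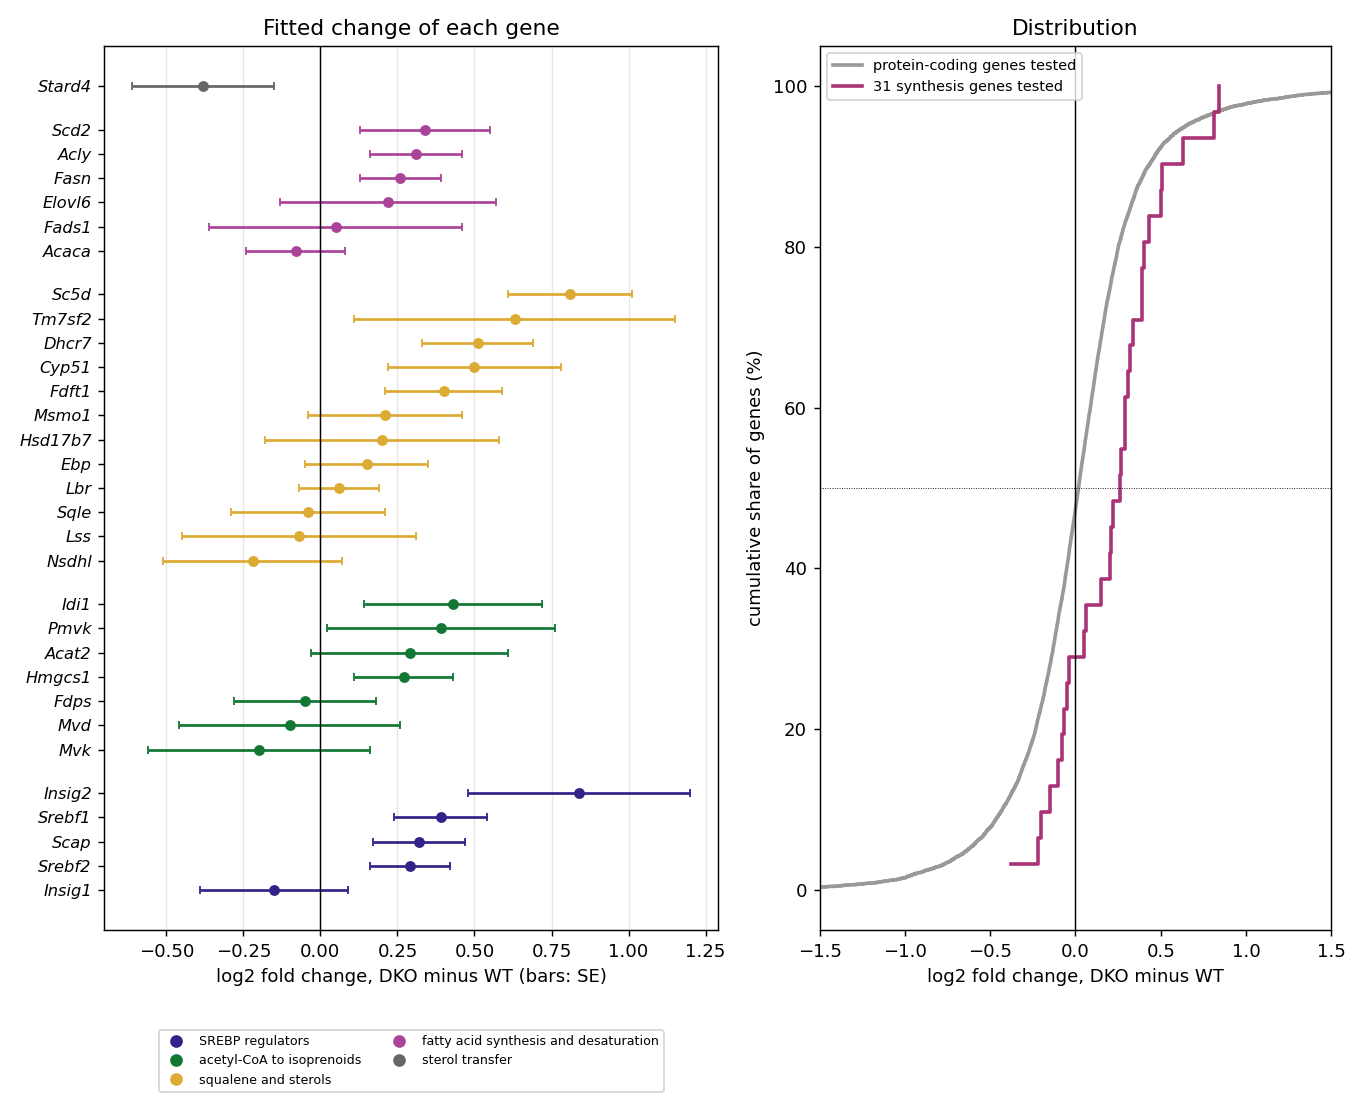
Left, the fitted log2 fold change (DKO minus WT) of the 31 tested members with its SE, coloured by pathway step; right, the cumulative share of genes (in percent) against the same fold change for the members and for all tested protein-coding genes. The members' curve lies to the right of the other through most of its range, with medians of 0.26 and 0.02, and no single member passed the test.

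Most of these genes were weakly expressed, which bears on how finely each can be read. Levels between genes are compared in TPM, the deposited unit that accounts for transcript length. By the mean over the 4 libraries 5 members were above 1 TPM, namely Lbr (4.76), Acly (2.35), Srebf2 (1.68), Srebf1 (1.61) and Fasn (1.1). Another 24 lay between 0.1 and 1 TPM, and 4 below 0.1 TPM, Fads1 (0.0942), Hsd17b7 (0.0711), Scd1 (0.00323) and Fads2 (0.00184). Among tested members the counts ran from 17 for Tm7sf2 in WT replicate 2 to 2438 for Lbr in DKO replicate 2.

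**Figure D2:**
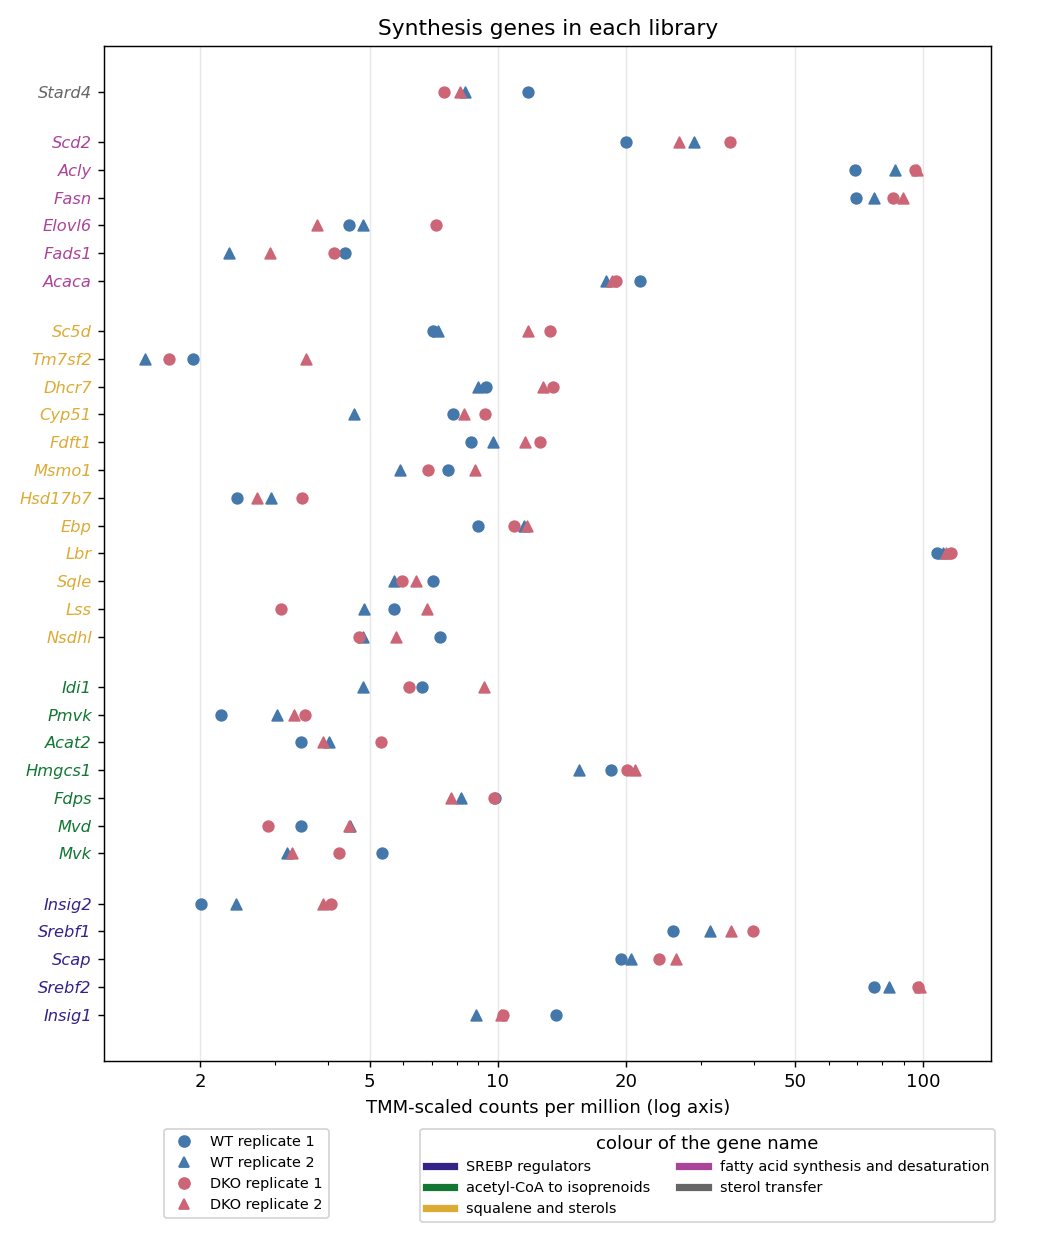
TMM-scaled CPM (log axis) of the 31 tested members in each of the 4 libraries, with genes grouped by step and WT and DKO told apart by colour. Sc5d, Dhcr7 and Insig2 show a clear gap between WT and DKO, whereas Insig1, Lss and Elovl6 show libraries of both groups mixed.

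Promoters were read because SREBP acts at short elements near the start, together with factors at CCAAT and GC boxes. RefSeq on GRCm38.p6 gave promoters for 26 of the 33 members, and none was matched for Fdps, Fdft1, Sqle, Scd1, Scd2, Fads1 and Stard4. The 250 bases before each start were searched on both strands for the sterol regulatory element TCACNCCAC, its E-box form TCACGTGA, the CCAAT box CCAAT and the GC box GGGCGG. No match of 1 motif overlapped a match of another in these windows. The promoters of the 4 members with the smallest unadjusted p are shown with every match on either strand in capitals, 5′ to 3′ on the strand of the gene.
Sc5d, chr9:42264301-42264550, minus strand: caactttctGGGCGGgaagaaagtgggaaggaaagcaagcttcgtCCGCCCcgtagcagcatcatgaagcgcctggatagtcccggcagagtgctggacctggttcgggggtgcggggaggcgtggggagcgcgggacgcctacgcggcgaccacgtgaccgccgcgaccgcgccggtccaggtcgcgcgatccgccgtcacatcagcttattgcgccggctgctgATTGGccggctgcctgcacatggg
Dhcr7, chr7:143829964-143830213, plus strand: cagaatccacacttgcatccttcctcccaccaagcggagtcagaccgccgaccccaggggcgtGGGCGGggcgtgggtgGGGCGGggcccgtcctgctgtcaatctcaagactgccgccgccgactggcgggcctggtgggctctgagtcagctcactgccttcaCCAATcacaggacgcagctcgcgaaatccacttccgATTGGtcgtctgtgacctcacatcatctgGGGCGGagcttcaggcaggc
Srebf1, chr11:60210472-60210721, minus strand: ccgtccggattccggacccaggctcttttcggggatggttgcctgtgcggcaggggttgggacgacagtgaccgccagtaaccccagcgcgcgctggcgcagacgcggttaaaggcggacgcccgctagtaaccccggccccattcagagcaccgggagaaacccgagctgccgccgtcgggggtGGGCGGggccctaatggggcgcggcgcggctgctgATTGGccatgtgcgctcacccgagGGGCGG
Insig2, chr1:121332590-121332839, minus strand: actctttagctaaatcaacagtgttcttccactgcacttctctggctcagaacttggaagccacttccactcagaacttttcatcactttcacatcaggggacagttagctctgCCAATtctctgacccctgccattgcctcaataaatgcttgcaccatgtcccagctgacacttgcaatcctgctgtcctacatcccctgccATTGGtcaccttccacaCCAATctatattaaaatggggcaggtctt
Dhcr7, Srebf1 and Insig2 have 3 RefSeq starts each, and the start with the most kinds of motif is shown, or the first listed where these tied.

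The Sc5d window held GC boxes that begin 241 and 205 bases before the start and a CCAAT box on the opposite strand at 24 bases. Dhcr7 had a CCAAT box on each strand, at 85 and 49 bases, between GC boxes at 187 and 171 bases and another at 20 bases. Srebf1 had GC boxes at 65 and 6 bases and a CCAAT box on the opposite strand at 30 bases. In the Insig2 window shown there were 3 CCAAT boxes and no GC box. The sterol regulatory element was found in 1 of the 26 members, Hmgcs1, at 137 bases before the start, and in 1.12% of 8510 tested protein-coding genes with a promoter. The Hmgcs1 stretch, chosen after its values were seen, has that match in capitals with 30 bases on each side.
Hmgcs1, chr13:119690184-119690252, plus strand: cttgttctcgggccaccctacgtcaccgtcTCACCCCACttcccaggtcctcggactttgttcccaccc
CCAAT boxes were present in 20 of the 26 members (76.9%) against 40.9% of the tested protein-coding genes, and GC boxes in 22 (84.6%) against 63.7%. Over all 32851 RefSeq promoters of the same length the 4 motifs, in the order given above, were in 1.05, 0.785, 33.8 and 32.7%. The E-box form was in none of the 26. These are matches of letters in a short window, and they do not show that a factor binds.

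Among the regulators, the genes for both SREBP precursors, SCAP and INSIG2 were each higher in both DKO libraries, and INSIG1 was not. Thus 4 of 5 (80%) lay above WT without overlap and 0 below. The shares were 19.9% and 18.8% for all genes and 22.3% and 16.4% for protein-coding ones. Srebf2, which encodes the SREBP that mainly drives sterol genes, was at 76.5 and 83.3 CPM in WT and 97.3 and 98.1 CPM in DKO, 1.22-fold with a log2 fold change of 0.29 (SE 0.13). The group means ± SD were 79.9 ± 4.8 and 97.7 ± 0.57 CPM (n = 2 each). Srebf1, whose products mainly drive fatty acid genes, was at 25.8 and 31.5 CPM against 39.7 and 35.4 CPM, 1.31-fold (log2 0.39, SE 0.15). The Srebf1 groups did not overlap, with DKO replicate 2 the nearer to WT. Scap, the sterol-sensing escort of SREBP, was at 19.5 and 20.6 CPM in WT and 23.9 and 26.2 CPM in DKO (log2 0.32, SE 0.15). Adjusted p by edgeR's quasi-likelihood test was 0.624 for Srebf2, 0.566 for Srebf1 and 0.639 for Scap. Relative to all genes the Scap fold change was below 0 in the TPM fits and with an effective length offset. Separately, 11.3% of its 31-base words also occur on the opposite strand of 5830462I19Rik, so the assignment of such reads is uncertain.

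The INSIG genes encode related proteins that hold SCAP in the endoplasmic reticulum, and Insig1 is itself a target of SREBP. Insig2 was at 2.01 and 2.42 CPM in WT and 4.06 and 3.88 CPM in DKO, from 28 and 28 against 69 and 84 estimated counts. That is 1.79-fold (log2 0.84, SE 0.36), the largest change of the set in this fit, with adjusted p = 0.606 by edgeR. The size depended on the treatment of transcript length: it was 0.20 with an effective length offset, and 0.42 with limma on log2(TPM + 0.1) and 0.12 on log2(TPM + 1), where the medians of all genes were 0.27 and 0.08. At the level of the gene, Insig2 was at 0.193 and 0.206 TPM in WT and 0.291 and 0.31 TPM in DKO. All 4 libraries were low, and the DKO libraries were close to each other and above both WT libraries. Its main transcript, 2697 bases long, took 69% of the counts, at 0.031 and 0.0403 TPM in WT and 0.129 and 0.11 TPM in DKO. Insig1 was at 13.7 and 8.89 CPM in WT and 10.3 and 10.2 CPM in DKO, with both DKO libraries between the WT libraries. Its log2 fold change of −0.15 (SE 0.24) became 0.20 without WT replicate 1. Relative to the median of all genes Insig1 was negative in the other settings computed for single genes, also in those that moved all genes upward. Per length, Insig2 stood at 0.373 and 0.615 of the Insig1 level in WT and at 0.628 and 0.591 in DKO, so the ratio overlapped between the groups.

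The early enzymes, from acetyl-CoA to farnesyl diphosphate, mostly had overlapping groups. Of the 7, 2 (28.6%) had both DKO libraries above both WT libraries and 0 had both below. The shares were 19.9% and 18.8% for all genes and 22.3% and 16.4% for protein-coding ones. Of the fold changes 4 were positive and 3 negative, and the median was 0.27. Hmgcs1, which makes HMG-CoA in the cytosol, was at 18.5 and 15.5 CPM in WT and 20.1 and 21 CPM in DKO, 1.20-fold (log2 0.27, SE 0.16). Both DKO libraries were higher, but WT replicate 1 lay nearer to them than to WT replicate 2. Idi1, which isomerises the isoprenoid units, was at 6.63 and 4.83 CPM against 6.18 and 9.3 CPM, with DKO replicate 1 below WT replicate 1. Pmvk, the kinase that adds the second phosphate to mevalonate, was at 2.23 and 3.02 CPM against 3.53 and 3.32 CPM. Fdps, which makes farnesyl diphosphate and had the highest level of this step per length (0.73 TPM), was at 9.83 and 8.2 CPM against 9.8 and 7.76 CPM. These Fdps values were spread alike in both groups. Acat2, Mvk and Mvd, which join acetyl-CoA, phosphorylate mevalonate and decarboxylate its diphosphate, had log2 fold changes of 0.29, −0.20 and −0.10, all with overlapping groups. The lowest adjusted p of this step was 0.731, for Hmgcs1, by edgeR's quasi-likelihood test.

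Read sharing touches this step most. Of the 31-base words in Acat2 transcripts, 43.7% also occur in Acat3, its near copy, and 27.1% of those of Idi1 and 27.9% of those of Fdps occur in other genes, so their estimated counts are uncertain. For Hmgcs1 the share was 13.1%, most of it on the opposite strand of Gm48342, and without a stated strand setting such reads cannot be told apart.

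The late sterol enzymes included Sc5d and Dhcr7, the members with the smallest unadjusted p. Of the 12, 5 had both DKO libraries above both WT libraries (Sc5d, Dhcr7, Fdft1, Cyp51 and Lbr) and none had both below, beside 19.9% and 18.8% of all genes and 22.3% and 16.4% of protein-coding ones, and 9 fold changes were positive. Sc5d (chromosome 9, 42251595 to 42264256), the lathosterol oxidase that sets the sterol C5 bond, was at 7.04 and 7.25 CPM in WT and 13.3 and 11.8 CPM in DKO. Its counts were 98 and 84 against 226 and 255, and the fitted fold was 1.75 (log2 0.81, SE 0.20). The group means ± SD were 7.14 ± 0.151 and 12.5 ± 1.08 CPM (n = 2 each), so the groups stood apart by several times their SD. Adjusted p for Sc5d was 0.243 by edgeR's quasi-likelihood test and 0.435 by DESeq2. Leaving out any library gave a log2 fold change of 0.74 to 0.92. Both of its main transcripts lay higher in DKO, the one of 1677 bases at 0.201 and 0.163 against 0.471 and 0.447 TPM and the one of 4787 bases at 0.0608 and 0.0585 against 0.109 and 0.118 TPM.

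Dhcr7 (chromosome 7, 143823145 to 143848410) encodes the reductase of the last step on the branch that Sc5d feeds. It was at 9.4 and 8.98 CPM in WT and 13.5 and 12.8 CPM in DKO, 1.43-fold (log2 0.51, SE 0.18), with adjusted p = 0.506 by edgeR. Both groups were tight and well apart, and the fold change was 0.49 to 0.58 with any library left out. One transcript, of 2556 bases, carried 91.5% of the counts. Fdft1, squalene synthase, which commits farnesyl diphosphate to sterols, stood at 8.67 and 9.76 CPM in WT against 12.6 and 11.6 CPM (log2 0.40, SE 0.19). Of its words, 17.6% also occur on the opposite strand of Ctsb and 14.3% in Gm6781, so part of this signal is uncertain. Cyp51, the lanosterol demethylase, stood at 7.85 and 4.59 CPM in WT against 9.32 and 8.32 CPM (log2 0.50, SE 0.28), and the value was 0.18 without WT replicate 2 and 0.94 without WT replicate 1. WT replicate 2 was far below the other 3 libraries for this gene.

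Lbr and Tm7sf2 encode alternative sterol C14 reductases, and LBR is also a receptor for lamin and heterochromatin in the nuclear envelope. Lbr was the most abundant member by TPM and the steadiest by CPM, at 108 and 111 CPM in WT and 116 and 113 CPM in DKO (log2 0.06, SE 0.13). Tm7sf2 stood at 1.92 and 1.48 CPM in WT against 1.69 and 3.54 CPM (log2 0.63, SE 0.52). Its offset came from DKO replicate 2 alone, since the value was 0.03 without that library. Per length, Lbr stood 27.8 and 33.3 times above Tm7sf2 in WT and 34.4 and 12.8 times in DKO. Sqle, the squalene epoxidase that is often rate-limiting, stood at 7.06 and 5.71 CPM in WT against 5.97 and 6.42 CPM (log2 −0.04, SE 0.25), with the DKO libraries inside the WT range. The cyclase gene Lss was at −0.07 and the C4 demethylation genes Msmo1, Nsdhl and Hsd17b7 at 0.21, −0.22 and 0.20. The isomerase gene Ebp was at 0.15, and all of these had overlapping groups.

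For several sterol genes many counts lay on transcripts annotated as not coding for protein. The coding share over all libraries was 29.9% for Ebp, 32.3% for Lss, 42.5% for Msmo1 and 57.9% for Tm7sf2, against 100% for Sc5d and 96.3% for Dhcr7. Retained-intron forms took 70.1% of the Ebp counts and 64.3% of the Lss counts. In WT 15.6 and 42.7% of the Msmo1 counts were coding, in DKO 62.5 and 45.1%, and the coding share of Lss was 12.9 and 27.2% against 52.6 and 37.4%. Both were higher in both DKO libraries, by a small margin in Msmo1. When only protein-coding transcripts were summed, an alternative added after the data were seen, the log2 fold change was 1.14 for Msmo1 in place of 0.21 and 1.05 for Lss in place of −0.07. It was 0.50 for Ebp in place of 0.15 and 0.37 for Tm7sf2 in place of 0.63. The unadjusted p-values were then 0.0351 for Msmo1, 0.122 for Lss, 0.306 for Ebp and 0.605 for Tm7sf2, and edgeR called 0 members under that sum. The main coding transcript of Msmo1 had 13.1 and 27 estimated counts in WT and 68.2 and 65.3 in DKO, so these values rest on few reads.

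**Figure D3:**
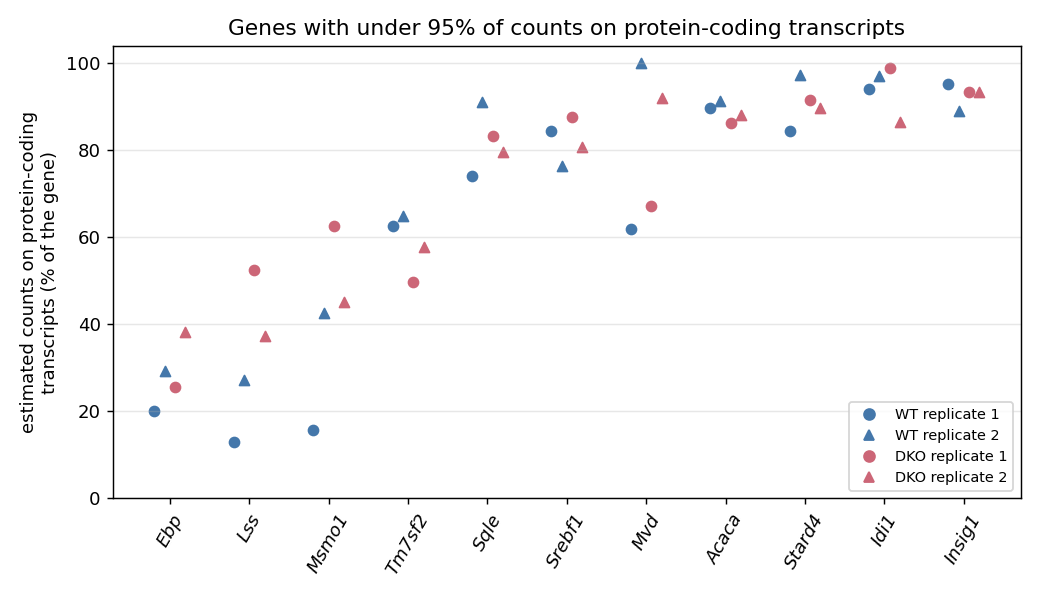
Share of each gene's estimated counts, in percent, that fell on protein-coding transcripts, by library, for the tested members where the share over all libraries was under 95%. Lss and Msmo1 show both DKO libraries above both WT libraries, at 52.6 and 37.4% and at 62.5 and 45.1%, while Tm7sf2 and Acaca show both below.

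In fatty acid synthesis the abundant genes Acly and Fasn were slightly higher in DKO, and the desaturase genes showed no separation. Acly, ATP citrate lyase, which supplies acetyl-CoA to both pathways, was at 69.2 and 85.6 CPM in WT and 95.6 and 96.8 CPM in DKO, 1.24-fold (log2 0.31, SE 0.15). Fasn, the synthase that builds palmitate, was at 69.6 and 76.7 CPM against 84.9 and 89.7 CPM, 1.19-fold (log2 0.26, SE 0.13). In both genes the DKO libraries lay above the WT libraries, and adjusted p was 0.641 and 0.676 by edgeR's quasi-likelihood test. They were 2 of the 6 tested genes of this step (33.3%), and 0 lay below without overlap. The shares were 19.9% and 18.8% for all genes and 22.3% and 16.4% for protein-coding ones. Without WT replicate 1 the Acly value was 0.17. Acaca, the carboxylase between them that makes malonyl-CoA, stood at 21.6 and 18 CPM in WT against 19 and 18.6 CPM (log2 −0.08), with the DKO libraries inside the WT range. However, 31.7% of the Acaca words also occur in Gm5182.

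The stearoyl-CoA desaturases place the first double bond. Scd2 was the most abundant of them, at 20.01 and 28.9 CPM in WT and 35.1 and 26.6 CPM in DKO (log2 0.34, SE 0.21), with overlapping groups. The value was 0.09 without WT replicate 1, 0.14 without DKO replicate 1, 0.64 without WT replicate 2 and 0.55 without DKO replicate 2. Of the other paralogues, the counts of Scd3 were 72 and 8 in WT against 39 and 101 in DKO. Scd1, the main form of liver and fat, had 10 estimated counts in WT replicate 1 and 0 in the other libraries, under the filter. Scd1 shares 8.18% of its words with other genes, mainly Scd3 and Scd2, so even the 10 counts are uncertain. A count of 0 allows up to 0.216, 0.181 and 0.168 CPM of the library total in WT replicate 2 and DKO replicates 1 and 2, for counting error only. Fads1, the delta-5 desaturase of polyunsaturated fatty acids, was at 4.38 and 2.33 CPM against 4.12 and 2.91 CPM, mixed between the groups. Its neighbour Fads2 had 0, 0, 0 and 2 counts and was not tested. Elovl6, which extends palmitate, was at 4.47 and 4.82 CPM against 7.15 and 3.75 CPM, and its log2 fold change of 0.22 became −0.29 without DKO replicate 1.

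Stard4, a soluble carrier that moves cholesterol between membranes and is a known SREBP target, was the 1 member that was lower in DKO without overlap. It was at 11.8 and 8.36 CPM in WT and 7.48 and 8.13 CPM in DKO (log2 −0.38, SE 0.23, adjusted p = 0.74 by edgeR). The separation was narrow, with WT replicate 2 at 8.36 and DKO replicate 2 at 8.13 CPM, and the value was −0.10 without WT replicate 1. Relative to all genes Stard4 was negative in every setting computed for single genes, while its own value was 0.51 when scaled to polymerase III transcripts and 0.04 and 0.17 in the TPM fits.

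The steps were alike in their medians and unlike in how well these held. The median log2 fold change was 0.32 for the SREBP regulators, 0.27 for the early enzymes, 0.21 for the late sterol enzymes and 0.24 for the fatty acid genes, with 5, 7, 12 and 6 tested. Differences between steps were not tested. The regulators had a median of 0.25 to 0.38 with any library left out. Relative to all genes it was 0.34 in the edgeR fit with TMM scaling. With an effective length offset it was 0.22, and 0.03 with limma on log2(TPM + 1). The median of the early enzymes was lower with each library left out. It was 0.18 and 0.16 without WT replicates 1 and 2 and 0.20 and 0.14 without DKO replicates 1 and 2. The fatty acid median was 0.04 without DKO replicate 1 and 0.32 without DKO replicate 2, and the late sterol median was 0.38 and 0.12 without the same libraries. All 4 medians lay above that of all genes in each of the 13 settings plotted, by only 0.03 to 0.09 with limma on log2(TPM + 1). That pseudocount is larger than the mean TPM of most members. With limma on log2(TPM + 0.1) the step medians lay 0.08 to 0.19 above that of all genes. With an effective length offset they lay 0.16 to 0.28 above it. What set the medians apart between settings was not tested.

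**Figure D4:**
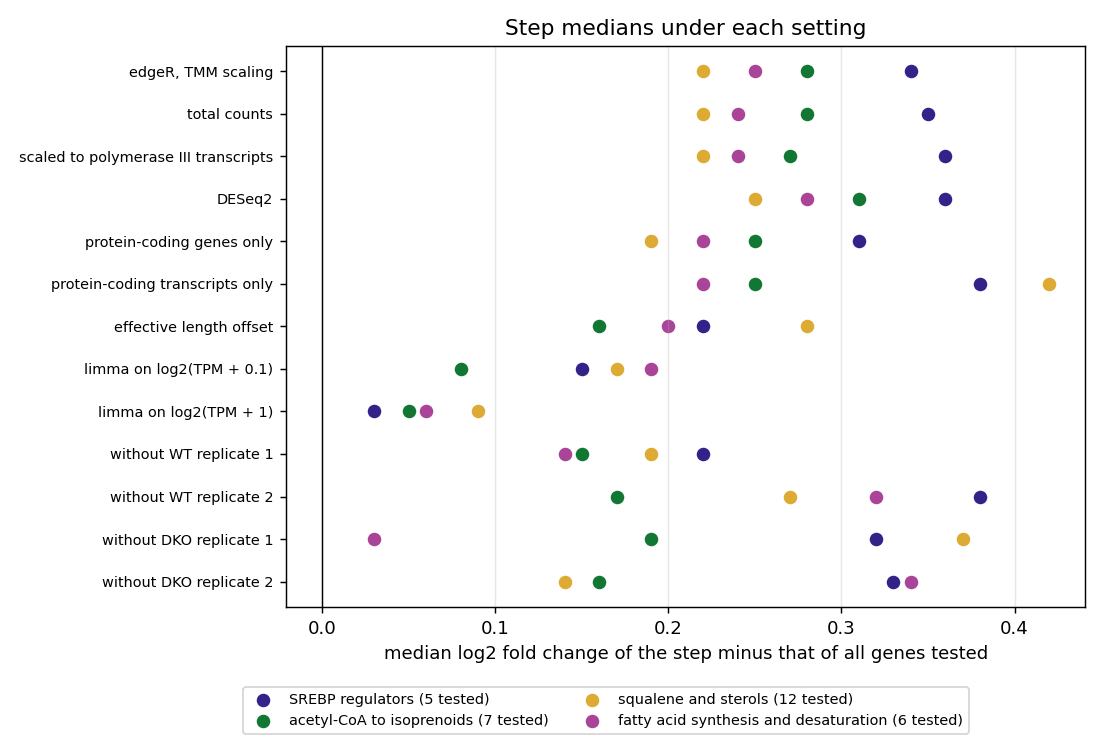
Median log2 fold change of each step with more than 1 gene, minus the median of all tested genes, under 13 settings of scaling, unit or libraries left out. Every point lies above 0, from 0.03 to 0.42, and the fatty acid step ranges from 0.03 without DKO replicate 1 to 0.34 without DKO replicate 2.

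Genes around these pathways were counted from 6 lists of 93 genes, of which 84 were tested. By edgeR's quasi-likelihood test 0 were called, and 6 were higher and 0 lower at an unadjusted p below 0.05. The shares at that unadjusted p were 3.82% and 4.35% for all genes and 4.39% and 2.66% for protein-coding ones. Without overlap 25 lay above WT (29.8%) and 11 below (13.1%). The shares were 19.9% and 18.8% for all genes and 22.3% and 16.4% for protein-coding ones. The median log2 fold change of the 84 was 0.06. Among 12 genes for the processing and degradation of SREBP and its partners, the median was −0.04. Syvn1, a ubiquitin ligase of the endoplasmic reticulum, was at 8.9 and 8.92 CPM in WT and 12.8 and 13.4 CPM in DKO (log2 0.56, SE 0.18, adjusted p = 0.435 by edgeR). Erlin2, which helps degrade sterol-regulated proteins, was at 5.18 and 5.31 against 6.36 and 7.11 CPM. The site proteases that release SREBP, Mbtps1 and Mbtps2, had log2 fold changes of −0.13 and −0.27.

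Genes of the LXR receptors, which respond to surplus sterol, and of sterol efflux had 8 of 10 tested, with a median of 0.23. All 8 had a positive fold change, as had 48.1% of all tested genes, and 3 (37.5%) lay above WT without overlap, beside 19.9% of all genes and 22.3% of protein-coding ones. Lpcat3, an LXR target that places polyunsaturated fatty acids in phospholipids, stood at 5.83 and 7.18 CPM in WT against 10.4 and 10.4 CPM (log2 0.68, SE 0.22, adjusted p = 0.416 by edgeR). Mylip, an LXR-induced ubiquitin ligase, stood at 24.2 and 31.1 CPM in WT against 38.3 and 33.4 CPM (log2 0.38, SE 0.16). The efflux pump gene Abca1, named with its values known, was at 24.6 and 26.8 against 36.5 and 26.3 CPM, with overlap.

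In sterol uptake, transport and storage 13 of 14 genes were tested, with a median of 0.11. Gramd1b, a carrier of plasma membrane cholesterol, was at 16.9 and 10.7 CPM against 17.7 and 22.9 CPM, and Lipa, the lysosomal lipase, at 29.2 and 39.4 CPM against 45 and 42.7 CPM. The last sterol step and the isoprenoid branches (13 genes) had a median of −0.04. Without overlap 3 lay above (23.1%) and 3 below (23.1%), near the 19.9% and 18.8% of all genes. For protein-coding genes the shares were 22.3% and 16.4%. In this list Rabggta, which attaches isoprenoids to RAB proteins, had a log2 fold change of −0.42.

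Other fatty acid synthesis genes (23 of 26 tested) had a median of 0.04, with 9 above (39.1%) and 4 below (17.4%) without overlap. The shares were 19.9% and 18.8% for all genes and 22.3% and 16.4% for protein-coding ones. Elovl5, which extends polyunsaturated fatty acids, stood at 43.6 and 39.4 CPM in WT against 52.3 and 54 CPM (log2 0.36, SE 0.13). Idh1, a cytosolic source of NADPH, was at 1.22 and 1.04 CPM against 3.18 and 2.31 CPM, from 17 and 12 against 54 and 50 counts (log2 1.27, SE 0.49). Fatty acid oxidation, which runs the other way in mitochondria, had 15 of 18 tested, 9 positive and 6 negative fold changes and a median of 0.09. Its members with the smallest p, Cpt2 and Decr1, had log2 fold changes of −0.58 and 0.63. None of these passed the test, with adjusted p by edgeR of 0.528 for Elovl5, 0.55 for Idh1, 0.686 for Cpt2 and 0.701 for Decr1.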

How the data were processed

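Total RNA of sorted cells was made into libraries with a stranded pico-input kit, per the labels' protocols. Abundances were estimated by the authors with kallisto, with mm10 and GRCm38 named, per the submitters' processing notes. The sources used here do not give its version, strand setting or annotation release. The authors deposited estimated counts and TPM, which they scaled for effective length and library, and the effective length of each transcript as another value in bases, per the file headers.

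Of 126782 transcripts, 98.7% joined GENCODE M21 by identifier without version. The rest held 0.822 to 0.852% of the counts and was left out. Counts were summed to genes, rounded and tested with edgeR 4.0.16 in R 4.3.3 (filterByExpr, TMM, robust quasi-likelihood F test on genotype), after a check on simulated data. CPM values use TMM-scaled totals. SE was taken as the log2 fold change over the root of its F. Alternatives used limma 3.58.1 on log2(TPM + 1) and log2(TPM + 0.1), and DESeq2 1.42.0. Words of 31 bases were compared with all GENCODE M21 transcripts on both strands.

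The members, lists and tests were chosen with earlier results of these data known. Values in every library are given for the regulators, for the 3 smallest p and the highest TPM of each larger step, for Stard4, and for paralogue pairs. Cyp51, Sqle, Acaca and Elovl6 were added after their values were seen, as were Scd3 and the coding-transcript values of Msmo1, Lss, Ebp and Tm7sf2. Up to 2 genes of each surrounding list are named by smallest p, with Mbtps1, Mbtps2 and Abca1 added in the same way. Replicate numbers were not used to pair the libraries (see the closing section).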

Additional observations from a re-analysis of the deposited data

How the results depend on the processing

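Tested members had 17 to 2438 estimated counts and 2 libraries a group, which limits what the test can call, and the scaling sets where 0 lies. The median of all genes moved from −0.01 to 0.33 with total counts and to 0.90 when scaled to 5 RNA polymerase III transcripts, and the member median moved with it, from 0.26 to 0.61 and 1.17. Members above without overlap were then 20 and 27 in place of 13 and members below 0 and 0 in place of 1. Both scalings moved all genes upward, and the matching shares of all genes are not given here. These counts are therefore not read as a result about the members. Called members were 1 and 2, Sc5d in both (adjusted p = 0.0245 and 0.0203 by edgeR) and Dhcr7 in the second (adjusted p = 0.049). Among all genes 194 and 472 were called higher and 66 and 22 lower. With no filter on low counts 1 member, Sc5d, was called (adjusted p = 0.0318 by edgeR) and the median was 0.29. All calls were then 141 higher and 253 lower. Over the alternatives without the crossed pairing the adjusted p of Sc5d ranged from 0.0203 to 0.974 by edgeR, the highest without DKO replicate 1. The median was 0.22 with protein-coding genes only, 0.16 with an effective length offset, and 0.16 and 0.40 with limma on log2(TPM + 1) and log2(TPM + 0.1), where 0 members lay below without overlap. Relative to all genes these medians were 0.24, 0.17, 0.07 and 0.14, in place of 0.27. Over all settings, calls among all genes ran from 0 to 472 higher and from 2 to 381 lower.

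Leaving out 1 library at a time, the median lay between 0.18 and 0.31, and was lowest without WT replicate 1 (0.16 relative to all genes). Members above without overlap were then 17 to 21 and members below 2 to 7, since fewer libraries overlap less often. The matching shares of all genes are not given, so these counts are not read as a result about the members. Of the single members, 13 changed direction relative to all genes in at least 1 setting, none of them past the threshold in any. The cause of these changes was not tested. With the replicate number as a block, edgeR called 0 members, the median was 0.26, and all calls were 52 higher and 89 lower in place of 7 and 9. Deviations of same-numbered libraries correlated at −0.316 across genes, so the numbers were not used as pairs, although 2 libraries a group cannot settle the pairing. With the crossed replicate block, added after the data were seen, 1 member was called higher and 0 lower, against 133 and 381 genes in all.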
